A study of Mus musculus with 84 samples.

Results

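Airway-projecting vagal sensory neurons that carried transcripts of Npy2r, the neuropeptide Y receptor Y2, were compared with those that did not. The neurons came from the vagal ganglia of C57BL/6 mice and had been filled by retrograde transport of the lipophilic dye DiI (2%) from the airways. Each was collected singly, its mRNA was amplified, and 1 library was made per neuron, which gave 84 neurons under 1 group label. A neuron entered the comparison with 5000000 or more counts, 5000 or more genes at 10 counts per 1e+06 counts (CPM) or more, and the transcription factor Prdm12 below 10 CPM. These limits kept 32 neurons and left out 52, of which 12 had too few counts, 33 had too few genes and 7 carried Prdm12. Of the 32, 17 had Npy2r at 10 CPM or more (53.1%, exact 95% interval 34.7 to 70.9%) and are called Npy2r neurons, and the other 15 are called Npy2r-negative.

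NPY2R is an inhibitory (Gi-coupled) receptor for neuropeptide Y and peptide YY. In the mouse vagus nerve, Npy2r marks a class of mostly slow C fibres whose stimulation gives rapid, shallow breathing. The purinergic receptor gene P2ry1 marks a class of mostly fast A fibres whose stimulation halts breathing in expiration. Both classes have endings in the lung.

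The labels name no animals and define no groups to compare. Neurons were therefore not treated as replicates, and no p-value was computed. A gene is called higher or lower when its share of neurons at 10 CPM or more differed by 40 percentage points or more between classes (the share rule). It is called higher or lower in level when the medians of log2(CPM + 10) differed by 2 or more, which is 4-fold on that scale (the level rule). Shares carry exact (Clopper-Pearson) 95% intervals and their differences Newcombe intervals, and both cover counting error only. Where no neuron of a class had a gene, the limit printed is 3 divided by the number of neurons, not the bound of the exact interval. With no molecular identifiers mentioned, amplified copies of a molecule count more than once.

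The 32 neurons held 7667941 to 20668832 counts and 5231 to 8870 genes at 10 CPM, with a median of 7866 genes in Npy2r neurons and 7837 in Npy2r-negative ones. Of 4 markers of the placode-derived nodose ganglion, Ntrk2 reached 10 CPM in all 32 neurons, Hoxb5 in 31 and P2rx2 in 26, while Phox2a did so in 2. Prdm12, the marker of the neural crest-derived jugular ganglion used for the selection, was at most 0.259 CPM, but its fellow jugular markers Runx1, Tac1 and Prrxl1 reached 10 CPM in 31, 21 and 15 neurons. The name nodose-type thus rests on the absence of Prdm12 and on 3 of the 4 nodose markers. All 10 pan-neuronal genes were within 0.784 points between the classes. None of the 84 libraries duplicated another, and kept neurons correlated at 0.959 or less with each other over log2(CPM + 1).

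Npy2r itself (ENSMUSG00000028004, chromosome 3, 82538383 to 82548084 on the minus strand of GRCm38) spread over a wide range in the neurons that carried it. In the 17 Npy2r neurons the lowest level was 10.2 CPM, the median 25.2 CPM and the highest 261 CPM. Their levels did not form a single high group: 7 neurons lay between 10 and 21 CPM, 8 reached 50 CPM and 3 reached 100 CPM. In the 15 Npy2r-negative neurons the lowest level was 0, the median 0.506 CPM and the highest 9.27 CPM. The negative class was mixed as well, with 9 neurons below 1 CPM (5 of them without a single count) and 6 from 4.39 to 9.27 CPM. The neuron just inside the threshold had 10.2 CPM and the one just outside it 9.27 CPM, so the boundary runs through a continuous stretch of low values. Since these values chose the members, they describe the classes and test nothing.

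**Figure D1:**
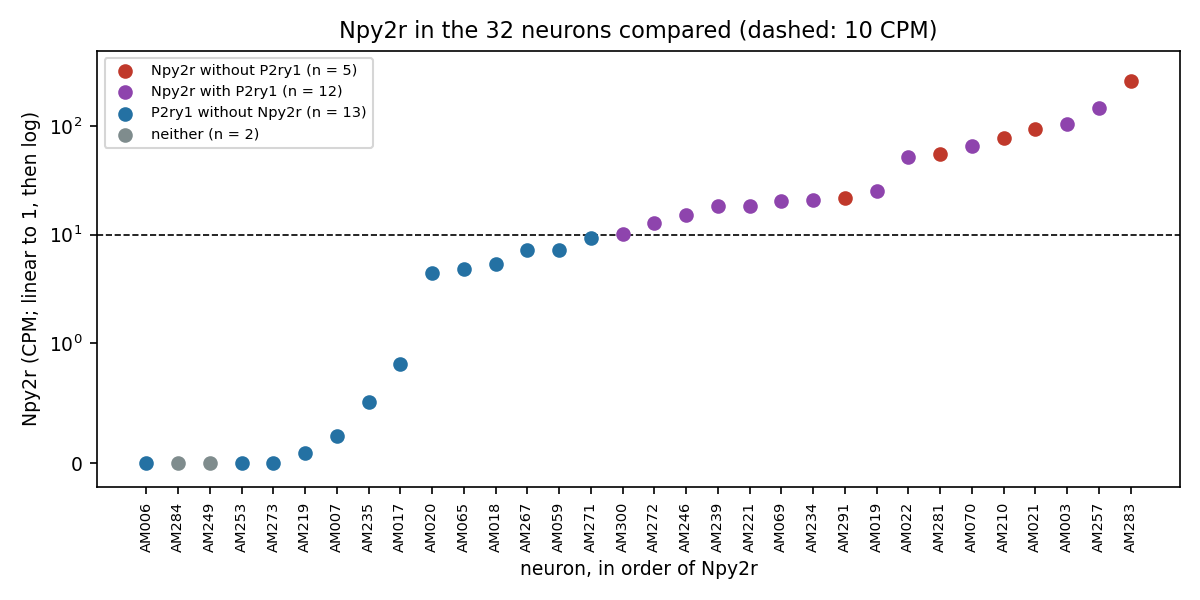
Npy2r in CPM (vertical axis, linear to 1 and logarithmic above) in each of the 32 neurons compared, ordered by level and coloured by Npy2r and P2ry1 class. The dashed line is the 10 CPM threshold, and neurons on both sides of it lie close together (9.27 and 10.2 CPM), with 261 CPM at the top.

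The other genes of the neuropeptide Y system were sparse. Npy1r, the Y1 receptor, reached 10 CPM in 2 Npy2r neurons, AM021 at 421 CPM and AM300 at 32.99 CPM (neurons are named as in the labels), and in 0 of 15 negative neurons. Npy4r reached 10 CPM in 0 Npy2r neurons and 2 negative ones, at 66.9 and 38.7 CPM. Npy5r stayed at or below 1.495 CPM, and Npy6r had no counts in any of the 32 neurons. Of the ligands, Npy itself was at 10 CPM or more in 3 Npy2r neurons, with 616 CPM in AM300, 113 CPM in AM246 and 43.03 CPM in AM272. These were the 3 Npy2r neurons with the least Npy2r, at 10.2, 15.1 and 12.9 CPM, and all carried P2ry1. In the negative neurons Npy did not exceed 0.214 CPM, and 0 of 15 allows a share of up to 20%. Pyy and Ppy, which encode peptide YY and pancreatic polypeptide, had no counts in either class.

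P2ry1 (chromosome 3, 61002795 to 61008982 on the plus strand, where the annotation also places Gm37035 on the opposite strand) was carried by most neurons of both classes. In Npy2r neurons its lowest level was 0.156 CPM, its median 211 CPM and its highest 1998 CPM. In negative neurons the lowest was 1.17 CPM, the median 294.6 CPM and the highest 1041 CPM. It reached 10 CPM in 12 of 17 Npy2r neurons and 13 of 15 negative ones, a difference of -16.1 points with an interval from -41.7 to 13.3 points. The classes overlapped over nearly their whole range, and the interval includes 0. The rank correlation of Npy2r with P2ry1 over the 32 neurons was -0.22 (Spearman), as a description of libraries that share their preparation and differ in depth. P2ry1 ranked 8308 of 9026 genes by that measure.

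Within the Npy2r neurons, P2ry1 and Trpv1 were also counted by the level of Npy2r. P2ry1 was present in 8 of the 9 neurons with Npy2r from 10 to below 50 CPM and in 4 of the 8 at 50 CPM or more. Trpv1, the capsaicin receptor and a mark of many C fibres, was present in 2 of 9 and 6 of 8 neurons. With so few neurons and a split on the values that chose them, these counts are a description. Among neurons without P2ry1, 6 of 7 had Trpv1. Put by Trpv1, Npy2r reached 10 CPM in 8 of the 12 neurons with Trpv1 and in 9 of the 20 without it.

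**Figure D2:**
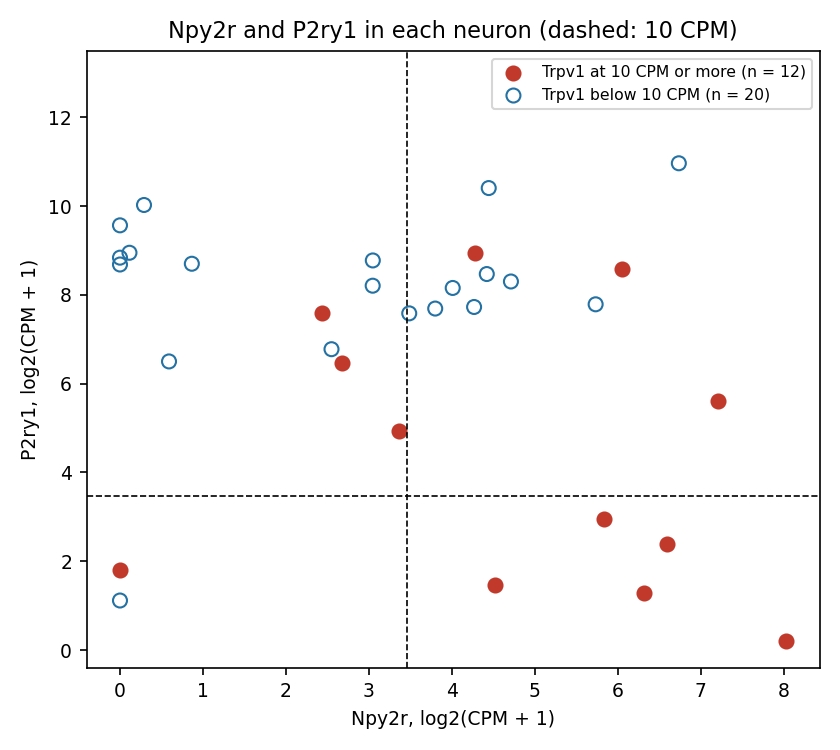
Npy2r (horizontal) against P2ry1 (vertical), both as log2(CPM + 1), 1 point per neuron, filled where Trpv1 was at 10 CPM or more (12 neurons) and open where it was below (20 neurons). Dashed lines mark 10 CPM on each axis, and 5 of the 17 Npy2r neurons lie below the P2ry1 line, all 5 of them filled.

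The remaining nucleotide receptors gave no gene past either rule. Over all genes tested 0.364% passed the share rule, so a count of 0 in a short list is at that background. P2rx2, the ATP-gated channel subunit typical of nodose neurons, reached 10 CPM in 14 Npy2r and 12 negative neurons, with medians of 37.3 and 93.9 CPM. P2rx3, its usual partner, did so in 10 and 8 neurons, with the caution that its gene overlaps Ssrp1. P2rx4 was found in 11 and 10 neurons, P2ry2 in 8 and 9, P2rx6 in 3 and 5, P2ry14 in 3 and 4, and P2rx5 in 3 and 1. P2rx7 and P2ry12 were each at 10 CPM in 1 Npy2r and 2 negative neurons. P2rx1, P2ry4, P2ry6 and P2ry13 reached 10 CPM in none of the 32. Over the 10 members of the list with enough detection to be compared, the median difference was -7.5 points, beside 0 points over all genes tested.

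Across the genome few genes set the classes apart. Of 11545 genes that reached 10 CPM in at least 3 of the 32 neurons, with Npy2r left out, 26 were higher in Npy2r neurons by the share rule (0.225% of those tested) and 16 were lower (0.139%). By the level rule 8 were higher (0.0693%) and 3 lower (0.026%). For no gene were the values of the classes free of overlap. The genes called were mostly protein-coding, 25 of the 26 higher and 12 of the 16 lower. No gene of the 28 gene lists passed the share rule, out of 316 tested.

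**Figure D3:**
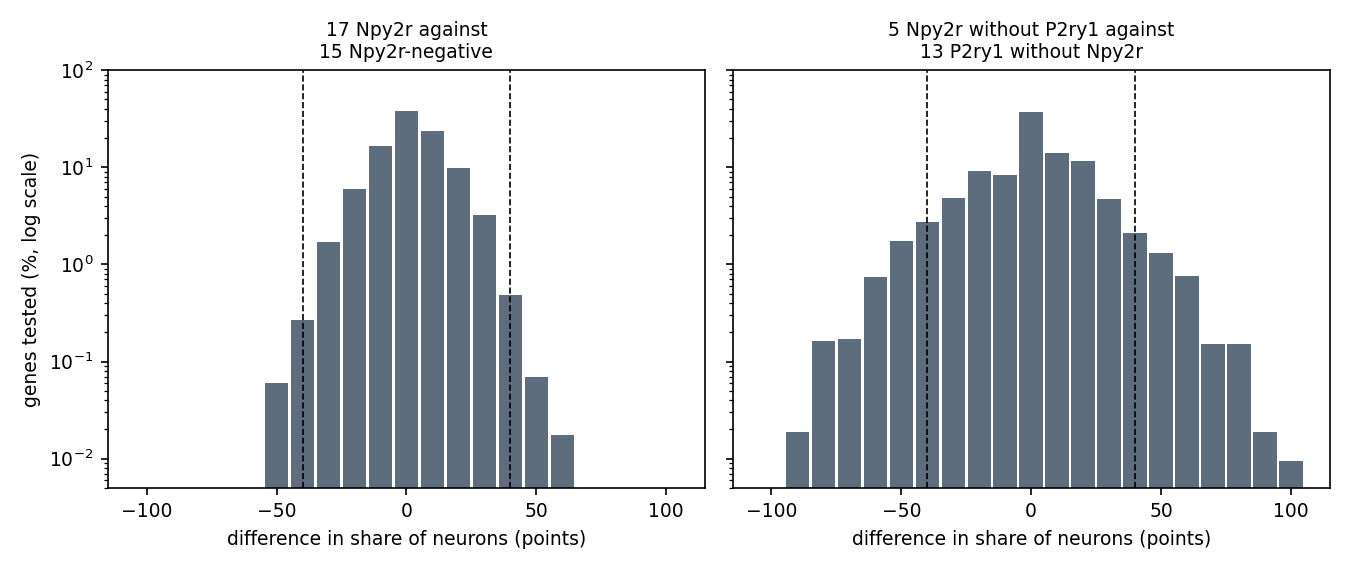
Distribution over genes of the difference in share of neurons at 10 CPM or more, in percentage points, for 17 Npy2r against 15 Npy2r-negative neurons (left) and for 5 Npy2r neurons without P2ry1 against 13 P2ry1 neurons without Npy2r (right), with the percentage of genes tested on a log axis. Dashed lines mark 40 points in each direction, which 0.364% of genes passed on the left and 7.47% on the right.

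Gng4, a G protein gamma subunit, had the largest share difference (chromosome 13, 13784059 to 13827896, plus strand, overlapping Gm25271). In Npy2r neurons its lowest level was 0, its median 27.1 CPM and its highest 133 CPM. In negative neurons the lowest was 0, the median 0.266 CPM and the highest 51.7 CPM. It was at 10 CPM or more in 12 of 17 against 2 of 15 neurons, a difference of 57.3 points (23.1 to 76.0). The 2 negative neurons that carried it, AM271 and AM059, were among the 6 with Npy2r from 4.39 to 9.27 CPM, and the other 13 had at most 4.44 CPM of Gng4.

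Unc5d, a member of the netrin receptor family (chromosome 8, 28646717 to 29219636, minus strand, with the non-coding Gm9911, Gm45652 and Svet1 inside or beside it), was found in Npy2r neurons alone among the 32. It reached 10 CPM in 8 of 17 against 0 of 15 neurons, a difference of 47.1 points (17.9 to 69.04). The highest Npy2r neuron had 81.1 CPM and the highest negative neuron 3.28 CPM. A count of 0 in 15 allows a share of up to 20%. Of the genes past the share rule, Unc5d had the level that followed Npy2r most closely over the 32 neurons (Spearman 0.63, rank 6 of 9026 genes). That correlation uses the Npy2r values that formed the classes, so it is not separate support.

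Speg, a kinase of the myosin light chain kinase family best known from muscle, reached 10 CPM in 13 of 17 against 3 of 15 neurons, with medians of 16.4 and 2.80 CPM. Kitl, the ligand of the receptor Kit, did so in 12 against 3, with medians of 12.6 and 0.564 CPM. Lmo7, a LIM domain protein of cell junctions, was at 15 against 6, and Arpp21, a phosphoprotein regulated by cyclic AMP, at 15 against 6. Pcgf1, a Polycomb subunit, was at 16 against 7 neurons, and Glce, which epimerises heparan sulfate, at 17 against 8. Magi2, a synaptic scaffold, was at 9 against 1, Dcaf17 at 10 against 2, and the adhesion gene Tenm4 and Ccser1 each at 11 against 3. These differences ran from 44.7 to 56.5 points. Itpr1, the calcium release channel opened by inositol trisphosphate, was at 16 against 8 neurons (40.8 points, 10.4 to 64.5), with medians of 67.7 and 11.97 CPM. Levels were low: the medians of Pcgf1 were 23.96 and 9.60 CPM, on either side of the threshold, and those of Magi2 10.4 and 0.998 CPM.

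Among genes lower in Npy2r neurons, Chic1 had the largest difference, with 2 of 17 against 10 of 15 neurons (-54.9 points, -74.9 to -21.2). Its lowest, median and highest levels were 0, 3.63 and 12.9 CPM in Npy2r neurons and 0, 14.2 and 171 CPM in negative ones. Pcdh10, a protocadherin of neuronal adhesion, was at 6 against 13 neurons, with medians of 7.78 and 22.1 CPM. Abcb4, a phospholipid transporter, was at 3 against 10, and Plekhg5 at 1 against 8. Csgalnact1, which starts chondroitin sulfate chains, and 4921524J17Rik were each at 7 against 13, and Irgm1, an interferon-induced GTPase, and Zfp846 each at 6 against 12. Cntn3, a contactin, was at 3 against 9, Entpd7 at 2 against 8, Cep162 at 1 against 7 and Csmd1 at 9 against 14. The highest median of these 12 genes in negative neurons was 27.8 CPM, for Csmd1, so the lower genes too were of low level.

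The level rule found genes with larger contrasts of median. Fxyd6, a regulator of the sodium pump, had a lowest level of 0, a median of 197 CPM and a highest of 1190 CPM in Npy2r neurons, against 0, 11.03 and 1797 CPM in negative ones, a difference of medians of 3.30 on the log2(CPM + 10) scale. The highest single value thus lay in a negative neuron, although 14 of 17 against 8 of 15 carried the gene. Atp2b4, a calcium pump of the plasma membrane, had medians of 73.8 and 2.19 CPM (2.78 on that scale), and Lypd6, a modulator of nicotinic receptors, 59.5 and 0.0844 CPM (2.78). Lypd6 had no counts in any of the 5 Npy2r neurons that lacked P2ry1. The protease inhibitor gene Serpinb1a had medians of 45.2 and 1.70 CPM (2.24), and Hs6st2, a heparan sulfate sulfotransferase, 42 and 2.22 CPM (2.09). In the largest block of neuron numbers (the third, described at the end), which holds 11 of the 17 Npy2r neurons, both stood the other way, with medians of 0.419 against 13.49 CPM for Serpinb1a and 3.83 against 10.9 CPM for Hs6st2. Lypd6 showed no difference of medians there, at 0 against 0.0356 CPM, with 5 of 11 against 2 of 8 neurons at 10 CPM. Gm43341, an unclassified transcript named because it completes the 8, stood at 2.01.

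Prkca, a protein kinase C gene, reached 10 CPM in all 17 Npy2r neurons, with 12.5, 171 and 833 CPM as the lowest, median and highest, and in 11 of 15 negative ones, with 0.774, 31.99 and 726 CPM, a difference in level of 2.11. Prkcb, which passed neither rule, had medians of 119 and 414 CPM, and was at 10 CPM or more in 16 of 17 and 11 of 15 neurons.

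Tac1, which encodes substance P, was the list gene higher in level. It was at 0, 160 and 7773 CPM as the lowest, median and highest in Npy2r neurons and at 0.133, 14.3 and 2964 CPM in negative ones, a difference of 2.81. Its shares, 12 of 17 and 9 of 15, were within 10.6 points. High levels lay mostly in neurons that carried both receptors. The median of Tac1 was 606 CPM in the 12 Npy2r neurons with P2ry1, 15.6 CPM in the 5 without it and 14.3 CPM in the 13 P2ry1 neurons without Npy2r.

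The 3 genes lower in level were Apoe, Fabp7 and Gpm6b, of which Apoe and Fabp7 are markers of the satellite glia that wrap these neurons. Apoe had a median of 18.8 CPM in Npy2r neurons and 397 CPM in negative ones (-3.82), with a highest value of 6454 CPM in an Npy2r neuron. Fabp7 had medians of 67.5 and 437 CPM (-2.53), and Gpm6b, a proteolipid found in neurons and glia, 17.6 and 112 CPM (-2.14). All 7 glial markers were detected, and their summed level ran from 38.99 to 9793 CPM in Npy2r neurons (median 401) and from 69.6 to 4663 CPM in negative ones (median 1712). Sox10, which defines glia, had medians of 0.275 and 0.143 CPM and reached 10 CPM in 5 neurons of each class. The part of glial RNA in the other differences was not tested. The Schwann cell sum had medians of 800 and 771 CPM, and of the 7 airway epithelial markers only Foxj1, a gene of ciliated cells, reached 10 CPM, in 2 Npy2r and 3 negative neurons (at most 23.1 CPM).

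**Figure D4:**
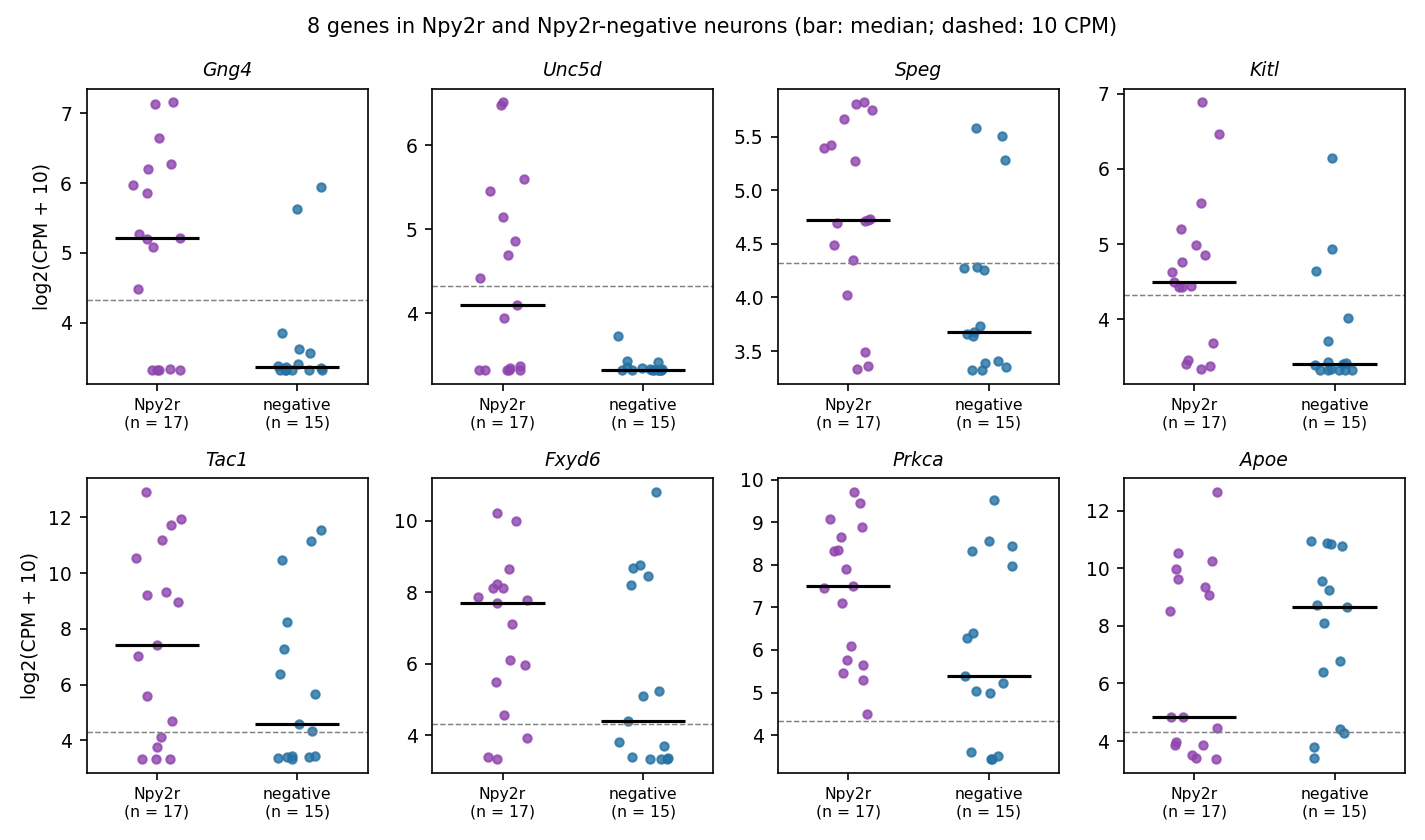
Levels of 8 genes as log2(CPM + 10) in the 17 Npy2r and the 15 Npy2r-negative neurons, 1 point per neuron, with a bar at the median and a dashed line at 10 CPM. Gng4, Unc5d, Speg and Kitl passed the share rule, Tac1, Fxyd6, Prkca and Apoe the level rule, and in every panel the classes overlap.

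With 0.225% of all genes higher and 0.139% lower by the share rule, most short lists hold none, and the counts of 0 that follow are at that background. Of the 12 C-fibre and nociceptor genes tested, 0 were higher and 0 lower by the share rule, and their median difference was 0.784 points. Trpv1 was at 8 of 17 against 4 of 15 neurons, Trpa1, the irritant receptor, at 7 against 2, and the sodium channel Scn10a at 16 against 11. Calca, which encodes CGRP, was at 2 against 6. Prph, the filament of thin fibres, had medians of 3063 and 2817 CPM.

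Of the 17 A-fibre genes tested, 0 were higher and 0 lower, with a median difference of 0.784 points. Nefh, the heavy neurofilament of large fibres, had medians of 895 and 799 CPM, and the mechanically gated channel Piezo2 was at 7 of 17 and 7 of 15 neurons. Scn1a, a sodium channel of fast fibres, was at 8 and 7. The widest difference of this list was 26.3 points, for the neurotrophin receptor gene Ntrk3.

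Of 16 genes of Gi signalling, on which NPY2R acts, 0 passed either rule, at the background of 0.364% by share. Gnao1, the alpha subunit of Go, had medians of 671 and 791 CPM, and Rgs4, which shortens Gi signals, 1243 and 766 CPM. Adcy5, a cyclase that Gi inhibits, came nearest to the share rule, with 10 of 17 against 3 of 15 neurons (38.8 points, 4.84 to 62.3). Cacna1b, the N-type calcium channel that Gi-coupled receptors restrain, was at 17 against 13 neurons, with medians of 147 and 81.2 CPM.

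Other channel and receptor lists also stayed at the background of 0.364% by the share rule: 0 of 16 sodium channel genes, 0 of 28 HCN and potassium channel genes, 0 of 15 calcium channel genes, 0 of 9 TRP channel genes and 0 of 9 mechanically gated and acid-sensing channel genes. Their widest differences were 35.3 points for Kcnk3, an acid-sensitive potassium channel found in 6 of 17 against 0 of 15 neurons, and -31.4 points for Hcn4. Among receptors the dopamine receptor gene Drd2 had the widest difference, with 7 against 1 neurons (34.5 points, 4.20 to 57.98). Cckar, the cholecystokinin receptor, was at 10 and 8 neurons, and Htr3a, the serotonin-gated channel, at 5 and 6. Of 15 injury and immediate early genes, 0 passed either rule.

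When P2ry1 was added to Npy2r, the neurons fell into 5 with Npy2r alone, 12 with both, 13 with P2ry1 alone and 2 with neither. The genes named from here on for these classes were chosen after their values were seen. The 5 Npy2r neurons without P2ry1 differed from the 13 P2ry1 neurons without Npy2r in many more genes than the classes by Npy2r did. Of 10552 genes tested, 355 were higher (3.36%) and 433 lower (4.1%) by the share rule, P2ry1 itself among the latter. With 5 neurons, 1 neuron moves a share by 20 points, so the rule is easier to pass than with 17. Against the 12 neurons with both receptors, the same 5 were higher in 395 of 10486 genes (3.77%) and lower in 480 (4.58%). The 12 with both differed from the 13 with P2ry1 alone in fewer genes, with 46 of 11070 higher (0.416%) and 53 lower (0.479%). These comparisons share neurons with each other and are not independent.

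All 5 Npy2r neurons without P2ry1 carried Trpv1, at 36.5 CPM in AM291, 50.9 CPM in AM283, 137 CPM in AM281, 165 CPM in AM210 and 923 CPM in AM021. Trpv1 reached 10 CPM in 3 of the 12 neurons with both receptors and in 3 of the 13 with P2ry1 alone, a difference of 76.9 points between the 5 and the 13. Trpa1 was at 515 to 2415 CPM in 4 of the 5 and had no counts in AM283, against 3 of 12 and 1 of 13 neurons. P2rx2 was present in all 5, at 21.7 CPM in AM283, 80.4 CPM in AM021 and 254.8 to 298.9 CPM in the other 3. Piezo2 was in none of the 5, at 1.56 CPM or less, against 7 of 12 and 6 of 13. A count of 0 in 5 allows a share of up to 60%.

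Several receptor and channel genes of the lists were found in most of these 5 neurons. Drd2 was in 5 of 5, at 21.9 to 160 CPM, against 2 of 12 and 1 of 13. Sort1, the sortilin receptor, was in 5 of 5, at 10.2 to 78.6 CPM, against 2 and 1. Kcnk3 was in 4 of 5, against 2 and 0, and Lpar3, a receptor for lysophosphatidic acid, in 4 of 5, against 1 and 1. The nicotinic receptor subunit genes Chrna3 and Chrnb4 were each in 4 of 5 neurons, against 3 and 2 of 12 and 2 and 2 of 13. Unc5d and Gng4 were in 5 of 5, against 3 and 7 of the 12 and 0 and 2 of the 13, so the 12 neurons with both receptors held an intermediate share of each. Both genes had been named for a higher share in Npy2r neurons. A share in the 12 above that in the 13 is therefore partly built in and tests nothing. Cartpt, which encodes the CART peptide, was in 5 of 5 at 59.7 to 1454 CPM, against 5 of 12 and 7 of 13.

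Some genes found in both P2ry1 classes were in few or none of the 5 neurons. Scn1a did not exceed 0.469 CPM in the 5 and reached 10 CPM in 8 of 12 and 7 of 13. Gabrg1, a GABA-A receptor subunit, did not exceed 1.66 CPM, against 7 of 12 and 9 of 13. The protocadherin gene Pcdh11x did not exceed 0.301 CPM, against 10 of 12 and 11 of 13. Grb14, an adaptor of receptor tyrosine kinases, was in 1 of 5, against 12 of 12 and 13 of 13. Pou4f1, a transcription factor of sensory neurons, was in 2 of 5, against 11 of 12 and 13 of 13. The 2 neurons with neither receptor, which also lack P2ry1, had Scn1a, Gabrg1 and Pcdh11x at 10 CPM in 0 of 2. They had Grb14 in 2 of 2 and Pou4f1 in 1 of 2. The absence of Scn1a, Gabrg1 and Pcdh11x was thus not seen in the 5 alone. Whether it goes with Npy2r or with the lack of P2ry1 was not tested.

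By list, 3 of 9 TRP channel genes (Trpv1, Trpa1 and Trpc4) were higher in the 5 neurons than in the 13 with P2ry1 alone and 0 lower. Over all genes tested 3.36% were higher and 4.1% lower. Of the calcium channel genes 4 of 13 were higher and 0 lower, of the C-fibre genes 2 of 11 and 0, of the A-fibre genes 0 of 16 and 3, and of the GABA-A and glutamate receptor genes 0 of 17 and 3. The 2 C-fibre genes were Trpv1 and Trpa1 again, so the TRP and C-fibre counts are not separate results. Other lists held genes of both directions: of the HCN and potassium channel genes 3 of 25 were higher and 4 lower, of the inflammatory mediator receptors 2 of 16 and 2, of the gut, metabolic and cardiovascular receptors 3 of 9 and 1, and of the axon guidance and adhesion genes 1 of 27 and 4. Nefh, which was at 10 CPM or more in every neuron, was at 247.97, 291.3, 347, 684 and 784 CPM in the 5 neurons and had medians of 1203 CPM in the 12 and 910 CPM in the 13.

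**Figure D5:**
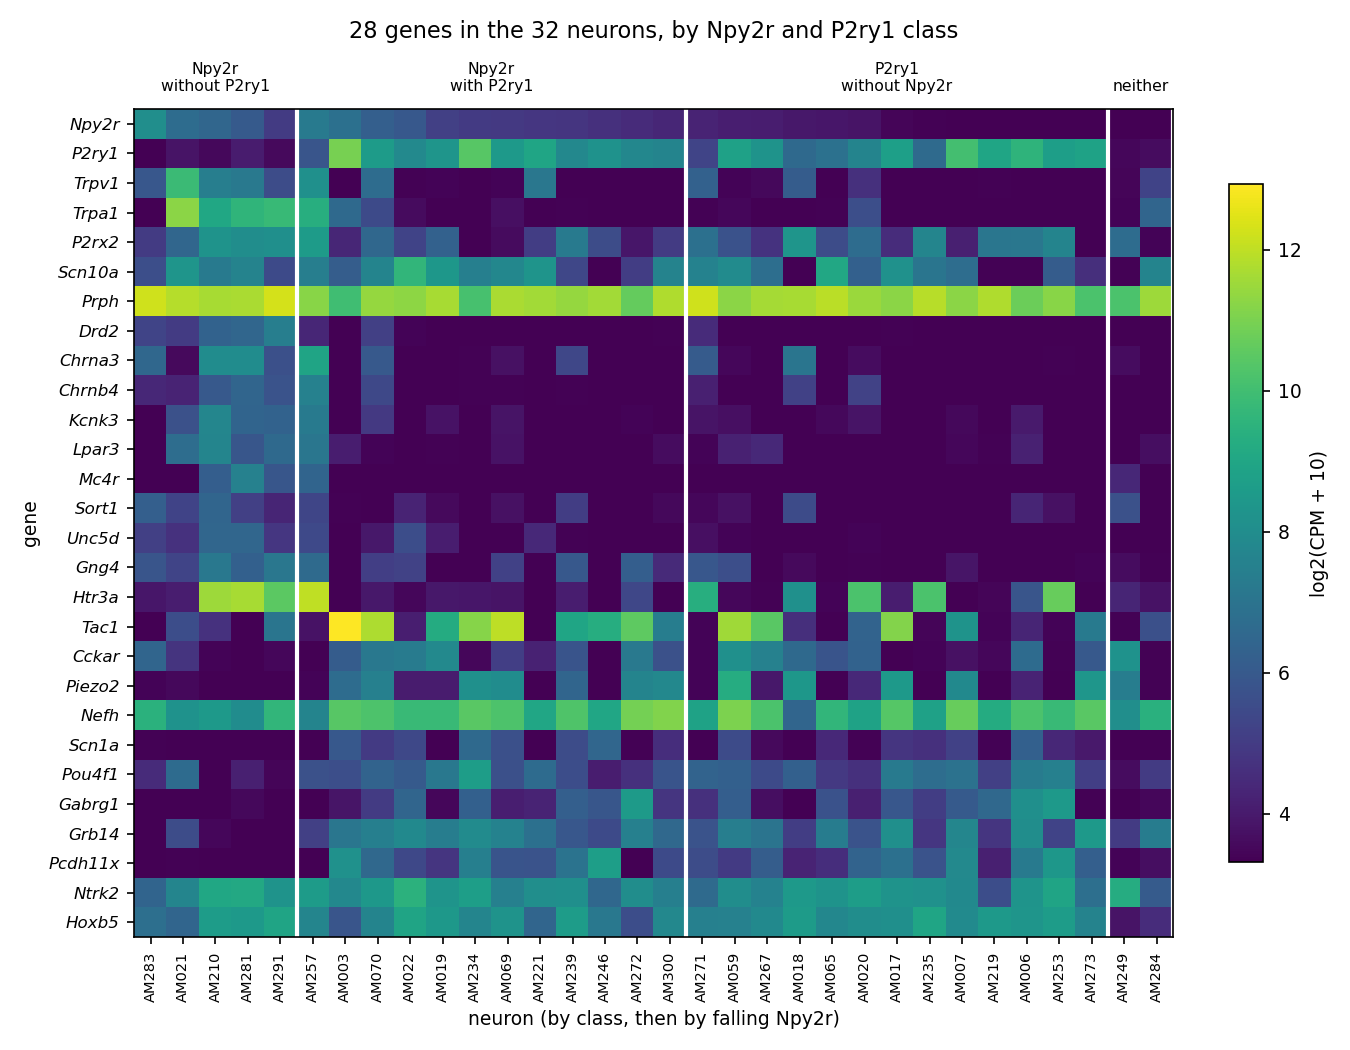
Levels of 28 genes as log2(CPM + 10), colour scale at right, in the 32 neurons grouped by Npy2r and P2ry1 class and ordered by falling Npy2r within each class. Trpv1, Drd2, Sort1 and Unc5d are above 10 CPM in all 5 neurons at left, where Piezo2, Scn1a, Gabrg1 and Pcdh11x are below it, and the leftmost neuron with both receptors (AM257, 147 CPM of Npy2r) has a column like theirs.

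The 5 were not alike. AM210, AM281 and AM291 shared Htr3a at 2925, 3239 and 1454 CPM, Mc4r, the melanocortin 4 receptor, at 62.3, 178 and 49.3 CPM, and the transcription factor Tbx3 at 168, 144 and 190 CPM. AM257, which counts as carrying both receptors with P2ry1 at 47.6 CPM, had the same genes, with Htr3a at 4054 CPM, Mc4r at 74.5 CPM, Trpv1 at 269 CPM and Trpa1 at 640 CPM. AM021 instead carried Calca at 9512 CPM, Gfra3, a receptor subunit for artemin, at 480 CPM, and Npy1r at 421 CPM, with Prdm12 at 0.150 CPM. AM283, the neuron with most Npy2r, had neither Htr3a nor Mc4r at 10 CPM, but had Calca at 379 CPM and Serpinb1a at 353 CPM. Taking AM257 into the class by a P2ry1 threshold of 50 CPM gave 955 genes past the share rule against P2ry1 neurons without Npy2r, compared with 787 without P2ry1 itself before.

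Over the 1000 most variable genes, with Npy2r left out, the nearest neuron by correlation was an Npy2r neuron for 8 of the 17 Npy2r neurons, while Npy2r neurons made up 51.6% of the others. It was a negative neuron for 8 of the 15 negative ones, which made up 45.2% of the others. Of the 5 Npy2r neurons without P2ry1, 3 had a nearest neighbour of their own class, which made up 12.9% of the others. P2ry1, which helps define that class, was not left out of the genes. The 3 were AM210, AM281 and AM291, a single set of alike neurons, so the count does not describe the class as a whole. AM210 and AM281 were each other's nearest neighbour (correlation 0.770), AM291 was nearest to AM281 (0.744), and AM257 also to AM281 (0.753). AM021 and AM283 were nearest to neurons with P2ry1, AM271 (0.230) and AM246 (0.296).

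Genes whose level over the 32 neurons was most like that of Npy2r were ranked among 9026 genes found at 10 CPM in 25% or more of the neurons, by Spearman correlation and as a description only, since all points share the preparation. The L-type calcium channel gene Cacna1c came first (0.67), followed by Papolg, a poly(A) polymerase (0.67), Sqle, an enzyme of cholesterol synthesis (0.64), and Cacna1b (0.64). Diaph2, Unc5d, Nudt7 and Lrp11 completed the first 8, at 0.61 to 0.63. Gng4 ranked 104 (0.46) and Trpv1 144 (0.44). At the other end stood Pomp, the proteasome maturation protein, at -0.72.

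Neuron numbers fall into 3 blocks with wide gaps between them, which hold 16, 11 and 57 of the 84 neurons. The labels do not say whether these are batches. The blocks gave 4, 2 and 11 Npy2r neurons and 5, 2 and 8 negative ones, so 11 of the 17 came from the last. Gng4 was at 10 CPM in 2 of 4 against 0 of 5 neurons in the first block, 2 of 2 against 1 of 2 in the second and 8 of 11 against 1 of 8 in the third. Unc5d was in 2 of 4, 0 of 2 and 6 of 11 Npy2r neurons. P2ry1 was in 3 of 4 against 5 of 5, 2 of 2 against 2 of 2, and 7 of 11 against 6 of 8. Apoe changed its direction between blocks, with medians of 331 against 74.7 CPM in the first, 752 against 136 CPM in the second and 11.7 against 508 CPM in the third. Fabp7 and Gpm6b did the same, with 136 against 82.2 CPM and 84.4 against 11.7 CPM in the first block, 99.6 against 72.1 CPM and 123 against 67.9 CPM in the second, and 67.5 against 658 CPM and 17.6 against 113 CPM in the third, so all 3 genes lower in level were lower in the third block only. Prkca stood at 85.9 against 374 CPM in the second block, where each class has 2 neurons, and was higher in Npy2r neurons in the other blocks. Among genes named by share, the shares of Irgm1 in the first block and Tenm4 in the second stood against their direction over all blocks. By medians more genes did so. These were Csmd1 (50.96 against 25.7 CPM) and Entpd7 (7.03 against 5.10 CPM) in the first block. In the second they were Entpd7, Csgalnact1, Pcdh10 and Lmo7 (20.6 against 72.2 CPM for Lmo7), and in the third Cep162 (1.54 against 0 CPM). Of the 5 Npy2r neurons without P2ry1, AM021 was in the first block and the other 4 were in the third.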

How the data were processed

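The deposited table held raw read counts (whole numbers, not normalized) for 50686 Ensembl mouse genes in 84 neurons. Reads were assigned to genes with featureCounts, per the submitters' processing notes; its version, like the aligner, genome build, annotation and strand setting, is not given in the sources used here. Symbols came from GENCODE M21 (GRCm38), which named 50376 identifiers, and coordinates are from that annotation. CPM were computed from each neuron's total; 10 CPM was 76.7 counts or more in the neurons kept. Genes tested reached 10 CPM in at least 3 kept neurons.

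The members, the 28 lists (478 genes) and the size rules were chosen with earlier results of these data known. Named genes were the list members past a rule or with the 2 highest shares, the whole neuropeptide Y, P2X and P2Y lists, the 12 protein-coding genes per direction with the largest share difference, the 8 per direction with the largest level difference and the 8 most like Npy2r. Genes named for the classes by P2ry1, the nearest neighbours, Itpr1, Gm43341 and other list members given for their role were chosen after their values were seen. The share rule was tested on simulated counts with large differences. The level rule, the classes by P2ry1, the nearest neighbours and the rank correlations were not tested in that way. Results that rest on an item withheld from this text are not reported here.

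Alternatives covered thresholds, neuron filters, thinning, trimmed mean of M-values (TMM) factors from edgeR 4.0.16 in R 4.3.3, and leaving out blocks and neurons. No edgeR test was run. Python 3.11.15, numpy 2.4.6, pandas 2.3.3, scipy 1.17.1 and matplotlib 3.10.9 were used.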

Additional observations from a re-analysis of the deposited data

Results flagged for a closer look

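Trpv1 in AM021 (923 CPM) stood apart from the other 4 Npy2r neurons without P2ry1, of which the next highest had 165 CPM. The gap made up 0.856 of the range, above the limit of 0.71 for 5 samples. It was found in a check of 15 genes on the CPM scale, not on a log scale. Chance flags about 1 in 20 such groups if values are normally distributed, which was not checked. All 5 values lie above 10 CPM.

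Npy2r also appeared in neurons left out of the comparison, which are given as values only. It reached 10 CPM in 4 of the 7 neurons with Prdm12 (57.1%, exact 95% interval 18.4 to 90.1%), with up to 243 CPM, and 1 of those 4 carried P2ry1. It reached 10 CPM in 5 of the 33 neurons with fewer than 5000 genes (15.2%, 5.11 to 31.9%), and all 5 carried P2ry1.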

How the results depend on the processing

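The numbers of genes called depended on the choice of neurons and thresholds more than on scaling. Which genes were called by share changed under TMM factors too. There the neurons were also sorted again by their rescaled Npy2r. AM300, at 10.2 CPM with a factor of 1.098, fell below 10 CPM. Class members and gene levels thus changed together, and their parts were not separated. Thinning sorted the neurons again in the same way. TMM factors kept 15 of the 42 genes, the fewest of the alternatives for which shared genes were counted. Counts are given as higher and lower by share, then higher and lower in level. The values reported are 26, 16, 8 and 3. Npy2r neurons at 50 CPM or more gave 265, 73, 24 and 17; negative neurons below 1 CPM gave 201, 36, 27 and 12; a minimum of 6500 genes gave 75, 64, 13 and 6. With no minimum of genes the counts were 1063, 0, 1059 and 6, and the P2ry1 difference became 21.5 points, where the negative class holds most of the neurons with few genes. Leaving out the first block gave 127, 66, 13 and 11, the second 63, 34, 11 and 9, and the third 420, 179, 26 and 6. Such alternatives leave fewer neurons, with 8 Npy2r neurons at 50 CPM or more and 9 negative neurons below 1 CPM. Without the third block, 4 and 2 Npy2r neurons and 5 and 2 negative ones remain, from the first and second blocks. In a smaller class 1 neuron moves a share by more, so the share rule is easier to pass. The part of class size in these counts was not tested. Neurons with P2ry1 only, an alternative added after seeing the data, gave 46 higher and 53 lower. By share, 5 genes were lower at 1 count, 25 at 20 CPM, and 16 were higher and 27 lower at 50 CPM; a 30-point rule gave 170 and 96, and a 50-point rule 3 and 2. In level, a pseudocount of 1 gave 204 and 68, and a difference of 1.5 gave 23 and 15. Thinning to equal depth gave 29, 15, 7 and 4, with 33 of the 42 genes called by share remaining; TMM factors gave 22, 17, 6 and 2, with 15 remaining.

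Leaving out 1 Npy2r neuron in turn gave 32 to 53 genes higher and 15 to 30 lower by share, 5 to 9 higher and 1 to 5 lower in level, and 39 to 42 of the 42 remained. More than 1.5 times as many genes were higher without AM234 (53), AM272 (51), AM283 (45) or AM246 (41), and lower without AM022 or AM069 (30), AM019 or AM070 (29), AM021 (27), AM281 (26), AM257 or AM300 (25). In level, 5 were higher without AM070, 5 lower without AM003, AM070 or AM239, and 1 lower without AM021 or AM283. The P2ry1 difference ran from -17.9 to -11.7 points. For the 5 neurons without P2ry1, leaving out each gave 831 to 1010 genes against 787, and the third block alone gave 1245. The Trpv1 difference stayed at 76.9 points as each was left out. That was fixed in advance, since all 5 carried Trpv1, and tests nothing.

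Of the 25 genes named by share, 2 (Ccser1 and Entpd7) stayed within their interval under every alternative; 45 values moved further without changing sign, and 10 changed sign: 4921524J17Rik (6.67 points), Cep162 (9.80) and Chic1 (0.784) at 1 count; 4921524J17Rik (5.88), Csmd1 (15.3), Arpp21 (-1.57), Pcgf1 (-6.67) and Tenm4 (-13.3) at 50 CPM; 4921524J17Rik (10.6) and Csmd1 (10.5) with no minimum of genes. The cause was not tested. No paired analysis was possible because the labels define 1 group, replicate numbers follow accession order only and no test was run. With 5 to 17 neurons a class, counting error limits every share.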
